A study of Mus musculus with 474 samples.

Results

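Cathepsins are the proteases of the lysosome, the compartment in which a cell degrades proteins taken up from outside or delivered from its own cytoplasm. Most are cysteine proteases made as inactive precursors, sorted to lysosomes through mannose 6-phosphate receptors and activated there by cleavage at acid pH. In haematopoietic stem cells (HSCs), the bone marrow cells that renew themselves and give rise to all blood lineages, lysosomes are unevenly passed on at some divisions, and lysosomal activity is tied to the quiescent state. The transcripts of 10 cathepsin genes, Ctsa, Ctsb, Ctsc, Ctsd, Ctsf, Ctsh, Ctsl, Ctso, Ctss and Ctsz, are described here across cells, sister cells, lysosome labels and culture experiments. They were taken by symbol from the count tables, where all 10 were found among 55450 genes, of which 27884 had a read in at least 1 listed cell.

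The data are single-cell RNA profiles (Smart-seq2, in which each cell is lysed in its own well and whole transcripts are read) of daughters of mouse HSCs. The HSCs came from male C57BL/6JRj mice aged 12 to 19 weeks, divided once in culture under time-lapse imaging, and their daughters were picked by micromanipulator. In each division the daughter that received more lysosomes is called high and its sister that received fewer is called low, and the cells carry no other treatment or genotype. Run 5 held 4 culture experiments, 60, 68, 72 and 73, with 48, 49, 28 and 52 cells, and run 4 held 5, namely 69, 74, 75, 76 and 77, with 32, 61, 72, 77 and 55 cells. Divisions with exactly 1 high and 1 low daughter numbered 20, 17, 11 and 19 in experiments 60, 68, 72 and 73 and 12, 27, 33, 38 and 26 in experiments 69, 74, 75, 76 and 77. A further 68 cells had no sequenced sister and enter levels and correlations only. How the lysosome label was set, how large the asymmetry was and which mice went into which experiment are not given in the labels, so p-values measure the spread between these cultures or divisions.

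Gene reads per cell ranged from 76735 to 2444858 with a median of 846198, and a median of 9867.5 genes was detected. The cells carried HSC transcripts: Mecom had reads in 100% of cells, Hlf and Kit in 99.8% and Ly6a in 97.9%, while Hoxb5 was at 0 in every cell, which allows a share of up to 0.633% of cells with a read, counting error only. Of 11 macrophage and dendritic markers, C1qa was at 0 in every cell and the median gene had reads in 7.38% of cells, but Lyz2 had reads in 99.6% and Cd68 in 58.4%. The summed level of these 11 markers ranged from 123.5 to 347.8 CPM (counts of a gene relative to all gene reads of the cell, on the usual scale) over experiments in high daughters and from 135.6 to 367.8 CPM in low daughters. The median marker had reads in 2% of cells for granulocytes, 0.633% for mast cells and basophils, 1.27% for erythroid cells, 1.9% for lymphocytes, 3.16% for stroma and endothelium and 56.2% for megakaryocytes, and Mpo, Alas2, Cd3e and Rag1 were at 0. Some members of these lists had reads in many cells: Prtn3 in 74.1% and Csf3r in 50.2% of cells for granulocytes, Cpa3 in 43.2% for mast cells, Cd79b in 69.4% and Lck in 50.8% for lymphocytes, and Pecam1 in 93.7% and Emcn in 66.2% for stroma and endothelium. Some libraries stood apart. Of all cells, 2 libraries had under 0.2% mitochondrial reads, against a median of 1.64%, both in experiment 68. One of them, the low daughter of a division, had 0 CPM for Kit, Ptprc and Malat1 and a summed cathepsin level of 108.1 CPM. Both daughters of 1 division of experiment 60, with 223267 reads in the high and 198884 in the low daughter, had no read for Ctsf, Ctsh, Ctsl, Ctso or Ctss. Levels, ranks and correlations that moved without the low-mitochondrial libraries are given both ways below.

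Cathepsin transcripts were present in every cell, led by Ctsd, Ctsz and Ctsb. Together the 10 transcripts took 1347 ± 273.4 CPM (SD over 9 experiments), or 0.135% of gene reads, and ranged from 108.1 to 4553 CPM in single cells with a median of 1318 CPM. The cell with 108.1 CPM is a low-mitochondrial library, and the lowest level without those libraries was 195.8 CPM. All 10 had reads in 21.3% of cells, 9 of them in 32.5%, 8 in 27.4% and 7 in 16.5%, and the least that any cell showed was 4 cathepsins, in 1 cell.

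Per kilobase of exon, Ctsd, which encodes the lysosome's main aspartic endopeptidase, stood first at 155.8 ± 37.7 CPM per kilobase (SD, n = 9 experiments). It lies on the minus strand of chromosome 7 at chr7:142375911-142388038 (GRCm38) and made up 36.8% ± 4.3 of the summed cathepsin level per kilobase. Ctsz, encoding a cysteine carboxypeptidase, followed at 103.3 ± 16.6 CPM per kilobase, and Ctsb, encoding a cysteine protease that acts as endopeptidase and as dipeptidyl carboxypeptidase, at 56.5 ± 12.4. Ctsa, whose product is a serine carboxypeptidase that also holds neuraminidase and beta-galactosidase in a protective complex, reached 35.2 ± 9.6 CPM per kilobase. These 4 genes kept their order, Ctsd over Ctsz over Ctsb over Ctsa over the next gene, in all 9 experiments, although the ranges of neighbours overlapped across experiments.

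The middle of the order was less fixed. Ctsc, encoding dipeptidyl peptidase I, which activates granule serine proteases, had 21.5 ± 3.5 CPM per kilobase and exceeded Ctss in 6 of 9 experiments. Ctss, encoding the endopeptidase that trims the invariant chain of class II molecules, had 18 ± 7.5 CPM per kilobase. Ctsl, encoding a broad cysteine endopeptidase, had 12.7 ± 3.8 and Ctso, encoding a less studied cysteine protease, 10.8 ± 3.6 CPM per kilobase, with Ctsl above Ctso in 7 of 9 experiments. Without the low-mitochondrial libraries Ctso had 10.1 ± 2.3 CPM per kilobase and Ctsl was above it in 8 of 9 experiments. Ctsh, encoding an aminopeptidase, and Ctsf, encoding a cysteine endopeptidase, stood last at 4.9 ± 2.1 and 2.8 ± 0.9 CPM per kilobase. With the length of the longest principal transcript in place of all exons, 5 of the 10 genes kept their place, Ctsc moved above Ctsa (50 against 45.6 CPM per kilobase) and Ctsl fell below Ctso and Ctsh.

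Annotated exons of other genes overlap some of these loci. Fdft1, on the opposite strand and at 149.9 CPM, shares 12.8% of Ctsb exon bases, and Gm49369, on the same strand and at 0.058 CPM, shares 34.4% of those of Ctsd. On opposite strands, Gm47123, at 0 CPM, shares 26.8% of Ctsl exon bases and Pltp, at 0.092 CPM, 10.5% of those of Ctsa. The counting is not stated to use strand, and strand would not separate Gm49369 from Ctsd, so reads in the shared bases cannot be told apart.

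The 10 genes fell into transcripts found in nearly every cell and transcripts found in part of the cells. Ctsa and Ctsd had reads in 100% of cells, Ctsb in 99.8%, Ctsc and Ctsz in 99.6%, Ctsl in 95.8% and Ctso in 95.4%. Ctsh had reads in 60.1%, Ctss in 57% and Ctsf in 46% of cells. With every cell thinned to 75000 reads, these last 3 shares were 46.8% for Ctsh, 46.8% for Ctss and 32.7% for Ctsf, against 86.9% for Ctsl and 81.9% for Ctso. Ctsf, Ctsh and Ctss all had reads in 21.9% of cells and all lacked reads in 15%. Ctsg, the neutrophil cathepsin, was among 8 of 12 further cathepsin genes with no read in any cell, Ctse had reads in 88.8%, Ctsw in 27% and Ctsk, the osteoclast cathepsin, in 2.95% of cells. A gene without a read may have gone undetected at this depth.

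Levels differed between experiments, and the same few experiments were high or low for several cathepsins. The cells of each experiment lay on 1 plate, except those of experiment 69, on 3. Culture and plate therefore cannot be told apart in these differences. Ctsd had 341.98 CPM in experiment 60, 374.9 in 68, 209.3 in 72 and 327.7 in 73, all of run 5, and 338.2 in 69, 384.2 in 74, 403.7 in 75, 368.3 in 76 and 549.2 in 77, all of run 4. Experiment 77 was the highest and experiment 72 the lowest for Ctsd, and the other 7 lay between 327.7 and 403.7 CPM. Ctss had 12.9, 22.5, 25.1 and 25.9 CPM in experiments 60, 68, 72 and 73 and 10.2, 25.1, 19, 40.2 and 39.1 CPM in experiments 69, 74, 75, 76 and 77. Its share of cells with reads ran from 28.1% in experiment 69 to 75.3% in experiment 76, and from 20.8% in experiment 60 to 66.2% in experiment 76 after thinning.

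Experiment 77 was the highest of 9 for 5 of the 10 cathepsins and among the 3 highest for 9 of them. Without the low-mitochondrial libraries it was the highest for 6, Ctso added, and still among the 3 highest for 9. Experiments 60 and 72 were among the 3 lowest for 8 cathepsins each, and experiment 69 was the lowest for 4. Ctsa had 210.5 CPM in experiment 75, its highest, and 86.8 CPM in experiment 60, its lowest, a ratio of 2.43. Without the low-mitochondrial libraries its highest experiment was 68, at 211.9 CPM. Ctsb had 436.7 CPM in experiment 77 and 205.5 CPM in experiment 60, a ratio of 2.13. Single cells weighed on the lower genes. The mean of Ctso in experiment 68 was 93.1 CPM with all cells and 59 CPM without the 2 low-mitochondrial libraries, 1 of which, a high daughter with no sequenced sister, had 1787 CPM. The mean of Ctss in experiment 69 was 10.2 CPM, and 6.64 CPM without its highest cell.

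**Figure D1:**
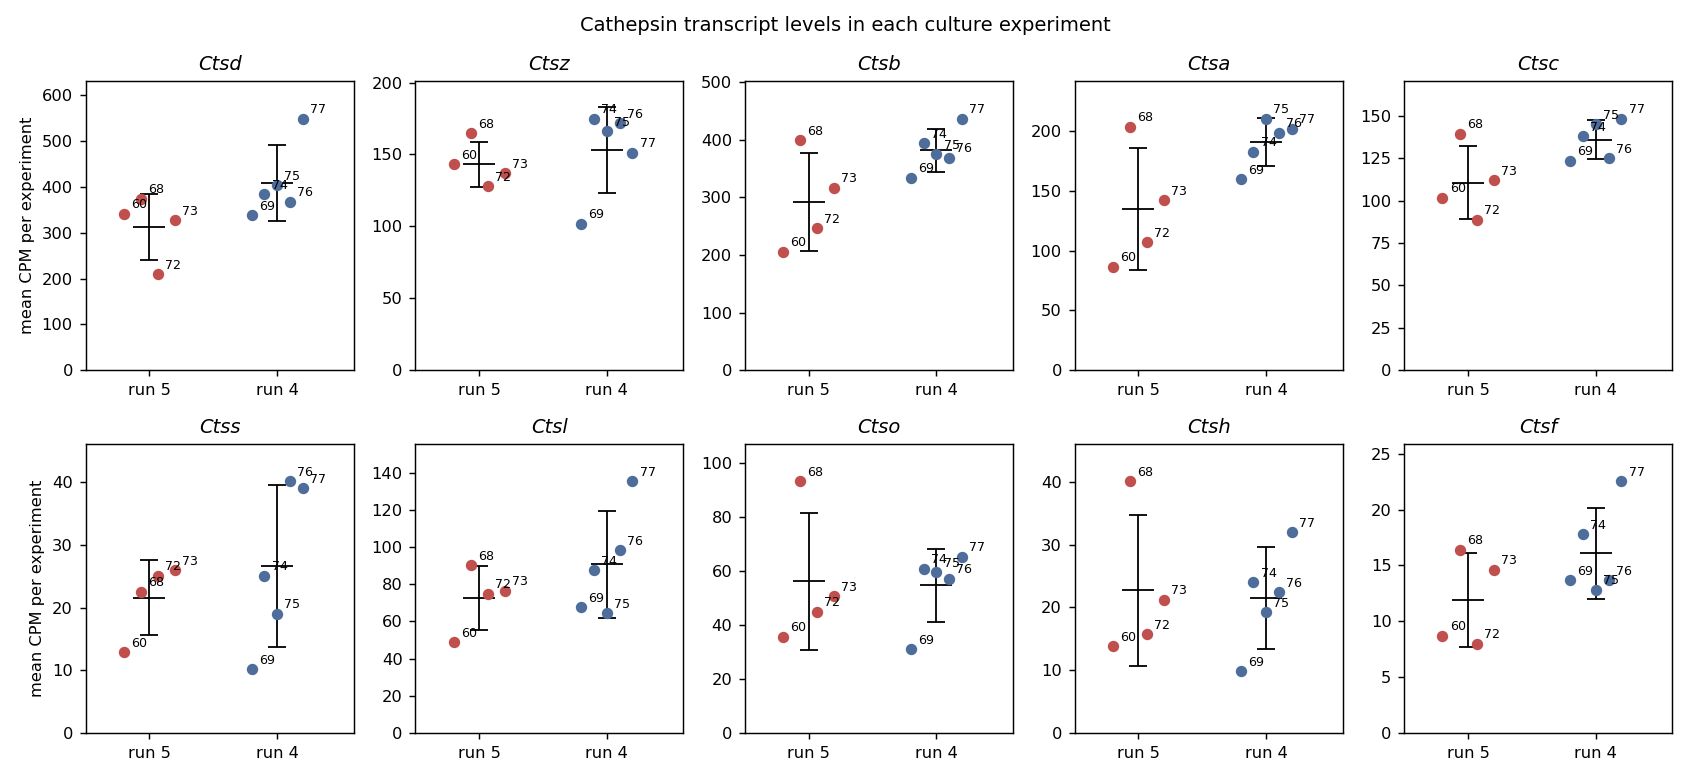
Mean CPM of each cathepsin transcript (y axis) in each culture experiment, named by its number, for run 5 (red) and run 4 (blue), with the mean and SD over experiments as bars. The runs overlap for all 10 genes, and experiment 77 is the highest for 5 of them, or for 6 without the low-mitochondrial libraries, which are included here.

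Run 5 and run 4 are different sets of experiments, so sequencing run, plate and culture cannot be told apart. No gene of 15269 tested passed the threshold between runs (0%, edgeR's quasi-likelihood test on counts summed per experiment, Benjamini-Hochberg adjusted p of 0.05), with 1621 genes (10.6%) at an unadjusted p under 0.05. Ctsa averaged 138.9 ± 49.7 CPM in run 5 and 191.8 ± 18.5 CPM in run 4 (SD, n = 4 and 5), a log2 difference of −0.46 ± 0.20 (SE) with edgeR's adjusted p = 0.459. It was the 1 cathepsin with an unadjusted p under 0.05. Ctsd averaged 316.4 ± 66.2 CPM in run 5 and 399.8 ± 73.9 CPM in run 4, a log2 difference of −0.34 ± 0.17 with edgeR's adjusted p = 0.488. The estimate was below 0 for 9 of the 10 cathepsins, with a median of −0.26, against 49.4% of all genes and a median of 0.0053, and that of Ctsh was 0.14 ± 0.33. All 10 genes had overlapping ranges in the 2 runs, where 1.76% of genes tested had every run 5 experiment below every run 4 experiment.

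Genes that work with cathepsins were read beside them, from a list of processing enzymes and partners. None of its 7 genes passed the threshold, and its median log2 difference between run 5 and run 4 was −0.32. Grn, encoding progranulin, had −0.41 ± 0.12, Psap, encoding prosaposin, −0.37 ± 0.15, Glb1, encoding lysosomal beta-galactosidase, −0.29 ± 0.13 and Scpep1, encoding a serine carboxypeptidase, −0.33 ± 0.16. The median was −0.20 over 5 cathepsin inhibitors tested and −0.06 over 9 genes of sorting to lysosomes, none of which passed either.

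Daughters with more and with fewer lysosomes did not differ detectably in any cathepsin transcript. Of 15854 genes tested on counts summed per experiment and label, with the experiment as block, 0 passed (0%), and 658 (4.15%) had an unadjusted p under 0.05, none of them a cathepsin. limma on the differences between sisters called 0 genes, with 668 at an unadjusted p under 0.05, Ctsa among them, and DESeq2 called 5, none of them a cathepsin. Each comparison below therefore gives the interval that these experiments allow.

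Ctsd had 407.6, 344.1, 231.6 and 323.1 CPM in high daughters of experiments 60, 68, 72 and 73, against 303.4, 352.6, 183.5 and 340.9 CPM in their low sisters. In experiments 69, 74, 75, 76 and 77 it had 341.99, 357.5, 378.02, 358.7 and 486.2 CPM in high daughters, against 297.9, 415.6, 398.8, 358.5 and 494 CPM in low daughters. High daughters were above their sisters in 4 of 9 experiments, and the labels overlapped throughout. The log2 difference, high over low, was 0.06 ± 0.06 (95% confidence interval −0.08 to 0.20, edgeR's adjusted p = 0.999).

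Among the other well detected genes, Ctsb averaged 340.2 ± 81 CPM in high daughters and 333.9 ± 79.8 CPM in their low sisters (SD, n = 9 experiments). Its log2 difference was 0.03 with an interval of −0.11 to 0.16. Ctsa averaged 171.4 ± 47.6 CPM in high daughters and 161.4 ± 51 CPM in their low sisters, and its log2 difference was 0.11 with an interval of −0.07 to 0.29. Within divisions Ctsa was higher in the high daughter in 57.6%, and limma on the differences between sisters gave 0.16 with an adjusted p of 0.862, the lowest of the 10 genes. Ctsc, Ctsl and Ctsz had log2 differences of 0.00, 0.02 and 0.04, and their intervals reached from −0.20 for Ctsc to 0.21 for Ctsz. Over these 6 genes, Ctsd included, the farthest bound of any interval was 0.29, that of Ctsa.

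In the summed counts Ctso had the smallest unadjusted p of the 10 genes, in the direction of low daughters. It averaged 46.6 ± 15.5 CPM in high daughters and 51.9 ± 7.1 CPM in their sisters and was higher in the high daughters in 3 of 9 experiments. In all 4 experiments of run 5 it was lower in high daughters. These had 29.5, 44.7, 32.3 and 49 CPM, against 44.6, 59.5, 50.1 and 54.2 CPM in low daughters. In run 4, high daughters had 22.5 CPM against 37 in experiment 69 and 57.3 against 57.7 in 77. They were above their sisters in experiments 74, 75 and 76, with 68, 56.3 and 59.5 CPM against 53.1, 56.1 and 54.5. The log2 difference was −0.22 ± 0.12 (interval −0.48 to 0.04), with an unadjusted p of 0.0949 and edgeR's adjusted p = 0.999. It was −0.03 in run 4 alone, and it was smaller in the differences between sisters: Ctso was higher in the high daughter in 49.3% of divisions, with a median difference of 0, and limma gave −0.09 with an adjusted p of 0.964. The label effect was also set between runs, and no gene of 15854 passed that interaction (0%, edgeR, 672 genes at an unadjusted p under 0.05), Ctso with an adjusted p of 1.

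The transcripts found in part of the cells left the widest intervals. Ctsh averaged 22.1 ± 6.7 CPM in high daughters and 21.9 ± 16.7 CPM in their sisters, with a log2 difference of 0.27 ± 0.26 (interval −0.28 to 0.83). In experiment 68, 1 low daughter with 508 CPM of Ctsh and 262.7 CPM of Ctsf, whose sister had 4.11 CPM and 18.5 CPM, set much of the level of 61 CPM in low daughters against 31.8 CPM in high daughters. Ctsf had a log2 difference of −0.23 ± 0.32 (interval −0.92 to 0.47) and Ctss one of 0.08 ± 0.17 (interval −0.28 to 0.43). Reads for Ctss were found in 54.7% of high and 57.1% of low daughters, for Ctsh in 56.7% and 58.6%, and for Ctsf in 42.4% of high and 46.8% of low daughters.

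**Figure D2:**
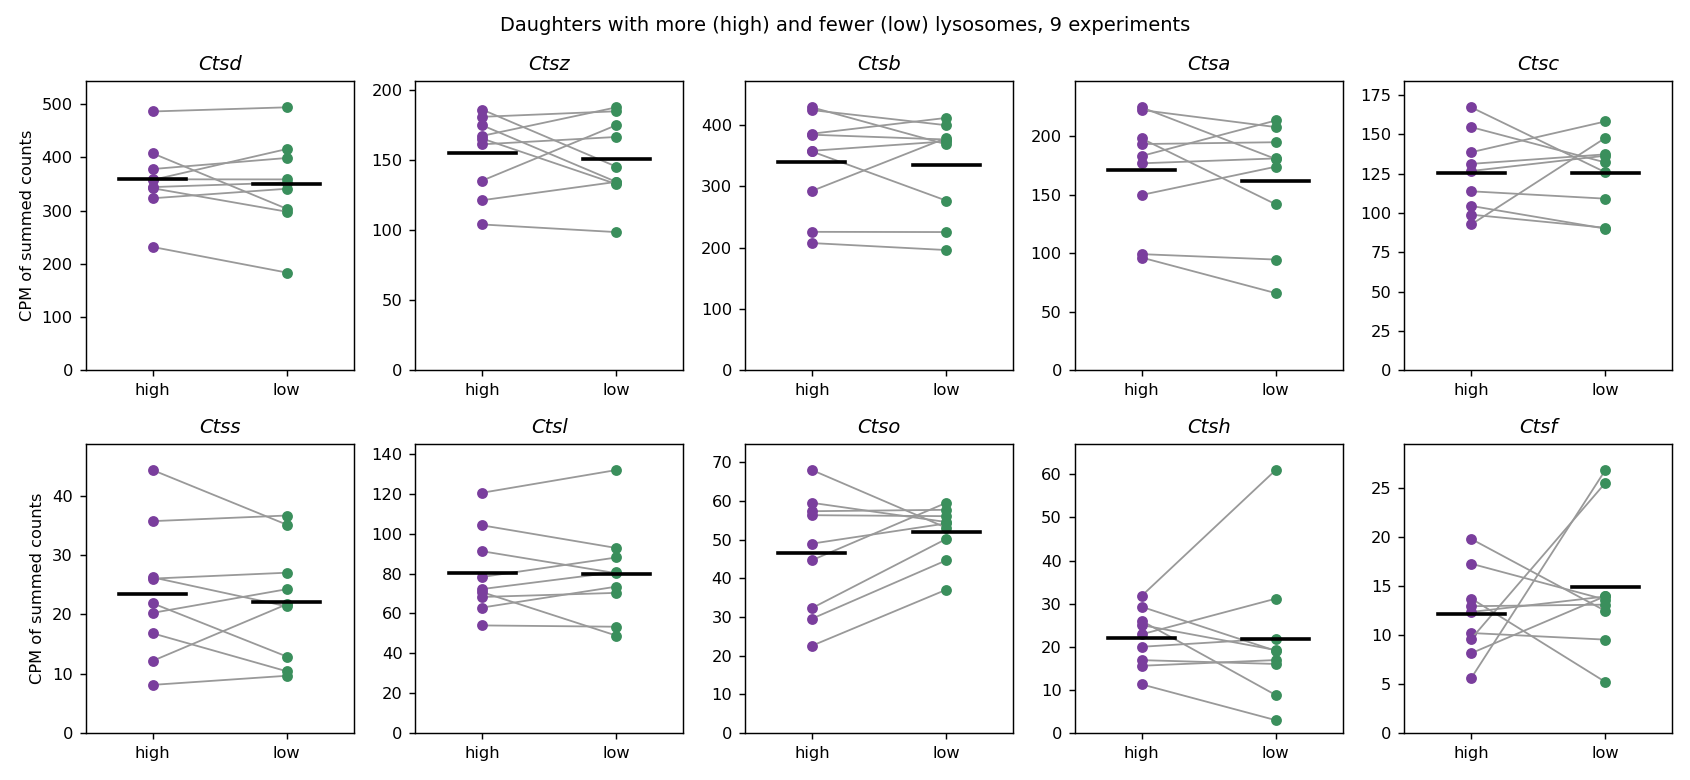
CPM of counts summed over high and over low daughters (x axis) for each cathepsin transcript (y axis), with a line joining the labels of 1 experiment and a bar at the mean of 9 experiments. Lines run both ways in every panel, and the bars of the 2 labels lie close together.

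Genes around the cathepsins gave the same count. None of 7 processing enzymes and partners passed between high and low daughters, with log2 differences of 0.07 for Grn, 0.05 for Tpp1, which encodes tripeptidyl peptidase, −0.04 for Psap and 0.03 for Glb1. None of 9 genes of sorting to lysosomes passed, with −0.21 for Sort1, the sortilin gene, −0.13 for Gga1, −0.10 for Gga3 and −0.12 for Gnptg, and a median of −0.10. None of 8 genes of class II presentation passed, with 0.30 for H2-DMb1, 0.34 for Cd74, 0.11 for H2-DMa and −0.12 for Ifi30.

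Sisters were more alike than unrelated cells for some cathepsins. The measure is the intraclass correlation of log2(CPM + 1) between sisters, after centring on experiment and plate: near 1, sisters differ little compared with divisions, and at 0 they differ as much as unrelated cells of 1 plate do. By an F test over divisions with Benjamini-Hochberg adjustment, 6 of 10 cathepsins passed 0.05, where 3084 of 11699 genes passed (26.4%). The median was 0.169 over the cathepsins and 0.0858 over all genes. Divisions of 1 culture are not independent cultures, so the same measure was tested over the 9 experiments with an exact sign-flip test. No gene passed that test after adjustment (0%), with 2767 (23.7%) at an unadjusted p under 0.05. Its smallest possible p is 0.0039, for which the adjusted p was 0.0502, so a gene at this floor could not pass here. The 0% therefore separates no genes. Ctsc, Ctsd and Ctss reached the floor. These 3 were positive in 9 of 9 experiments, as were 896 genes (7.66%).

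Ctsd was the cathepsin in which sisters were most alike, with an intraclass correlation of 0.541 (95% confidence interval 0.435 to 0.633). Divisions chosen for their mean level show the range. The highest pair, in experiment 77, had 1006 CPM in the high and 1123 CPM in the low daughter, a pair of experiment 76 had 960.5 and 1046 CPM, and the lowest, in experiment 75, had 113.7 CPM in the high and 62.9 CPM in the low daughter. The pair at the median, in experiment 60, had 482.6 CPM in the high and 160.7 CPM in the low daughter, so sisters were not alike in every division. Sisters differed by more than 2-fold in 12.3% of divisions. The correlation inside experiments was 0.33, 0.32, 0.534 and 0.477 in experiments 60, 68, 72 and 73 and 0.621, 0.738, 0.755, 0.614 and 0.721 in experiments 69, 74, 75, 76 and 77. It was 0.369 in run 5 alone, where 10.3% of genes passed, and 0.685 in run 4 alone, where 21.2% did, and it passed in both. Without the division with a low-mitochondrial library, whose high and low daughters had 234.4 and 1.3 CPM, it was 0.632.

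Ctss followed with 0.461 (interval 0.344 to 0.564). The 3 pairs with the highest levels had 147.2 CPM in the high and 200.8 CPM in the low daughter in experiment 77, 137.5 and 164.1 CPM in experiment 76 and 131.8 and 164.4 CPM in experiment 74, and the pair at the median, in experiment 60, had 0 CPM in the high and 27.1 CPM in the low daughter. Both daughters had Ctss reads in 86 divisions, 1 daughter in 55 and neither in 62. Sisters matched in having or lacking reads in 72.9% of divisions, against 56.1% of unrelated pairs within experiment and plate. The correlation was 0.0641 in experiment 75 and ran from 0.309 to 0.663 in the other 8. It passed in run 5 alone (0.555) and in run 4 alone (0.414).

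Ctsl (0.261, adjusted p = 0.000878 by the F test) and Ctsh (0.236, adjusted p = 0.00292) also passed, and so did Ctso (0.175, adjusted p = 0.0289) and Ctsf (0.163, adjusted p = 0.042). Sisters matched in having or lacking Ctsh reads in 63.5% of divisions, against 51.8% of unrelated pairs, and for Ctsf in 56.2% against 51.3%. Both daughters had Ctsh reads in 80 divisions and neither in 49, and for Ctsf both had reads in 46 and neither in 68. Ctso lost its call without experiment 60, 75 or 76, with adjusted p-values of 0.0805, 0.0617 and 0.101. Ctsf lost its call without any 1 of experiments 60, 69, 72, 74, 75 and 77. Ctsd, Ctsh, Ctsl and Ctss passed with any 1 experiment left out. In run 5 alone the cathepsins that passed were Ctsd, Ctsl and Ctss, and in run 4 alone Ctsb, Ctsd, Ctsh and Ctss.

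**Figure D3:**
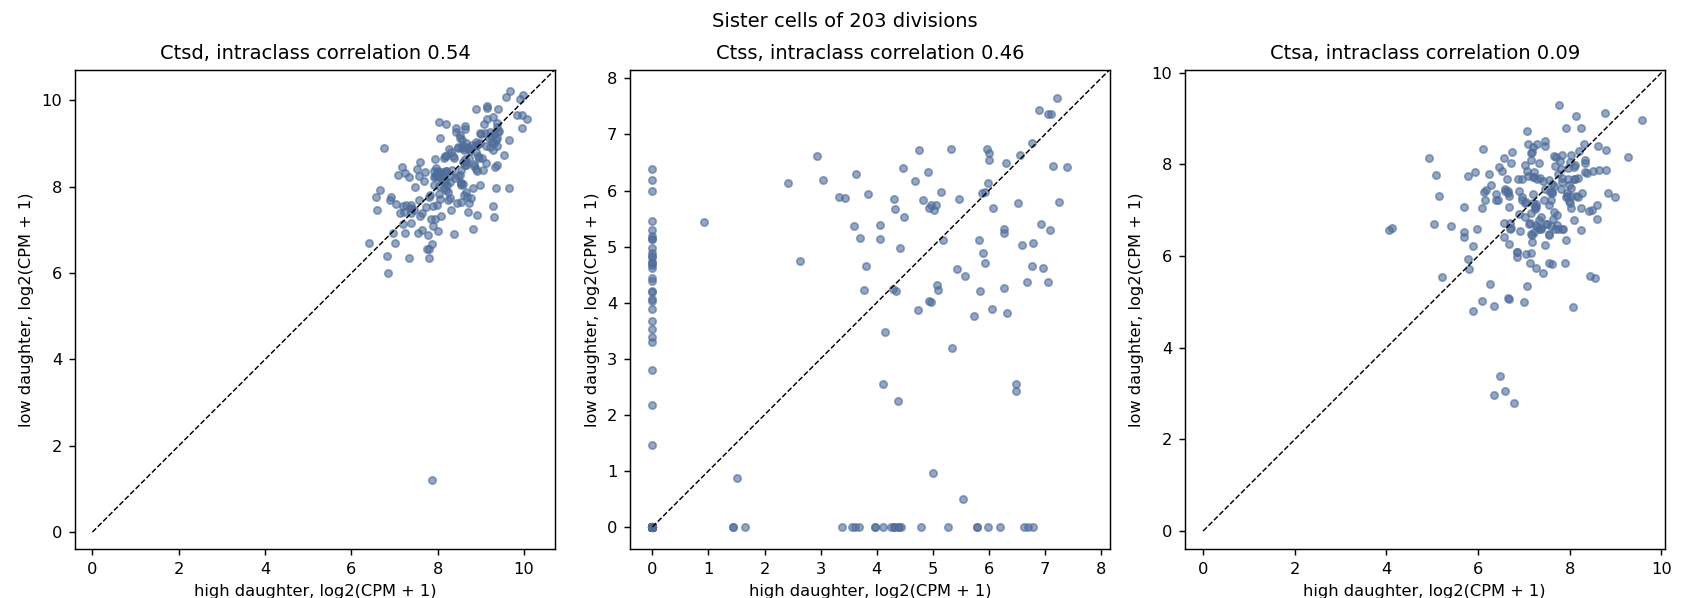
Each point is 1 division, with log2(CPM + 1) of the high daughter on the x axis and of the low daughter on the y axis, for Ctsd, Ctss and Ctsa. Ctsd points scatter along the dashed line of equality, with 12.3% of divisions more than 2-fold apart and 1 at the bottom with 1.3 CPM in its low daughter, Ctss has divisions without reads along both axes, and Ctsa points form a round cloud.

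The 4 cathepsins that did not pass were transcripts with reads in nearly every cell. Ctsb had 0.145 (interval 0.006 to 0.278, adjusted p = 0.0685 by the F test), Ctsc 0.131, Ctsz 0.104 and Ctsa 0.0908 (interval −0.049 to 0.227). Ctsb rested on 1 library: without the division of the low-mitochondrial library, whose daughters had 430.1 CPM in the high and 0 CPM in the low cell, its correlation was 0.221 with an adjusted p of 0.00553 by the F test, and without experiment 68 it was 0.267. Sisters differed by more than 2-fold in 19.2% of divisions for Ctsb, 30.5% for Ctsz, 31.5% for Ctsc and 35% for Ctsa, against 12.3% for Ctsd.

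Scores of cell cycle genes moved with several of the cathepsins but hardly with Ctsc (r = −0.05 with G1/S and −0.02 with G2/M). When scores of G1/S and G2/M genes and their squares were regressed out, 1430 genes passed (12.2%), and 4 cathepsins: Ctsd (0.452), Ctss (0.368), Ctsl (0.196) and Ctsh (0.185). Ctso had 0.152 with an adjusted p of 0.0958 by the F test, and Ctsf 0.076. After thinning all cells to 75000 reads, 1884 genes passed (16.1%), and 3 cathepsins: Ctsd (0.414), Ctss (0.451) and Ctsb (0.196).

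**Figure D4:**
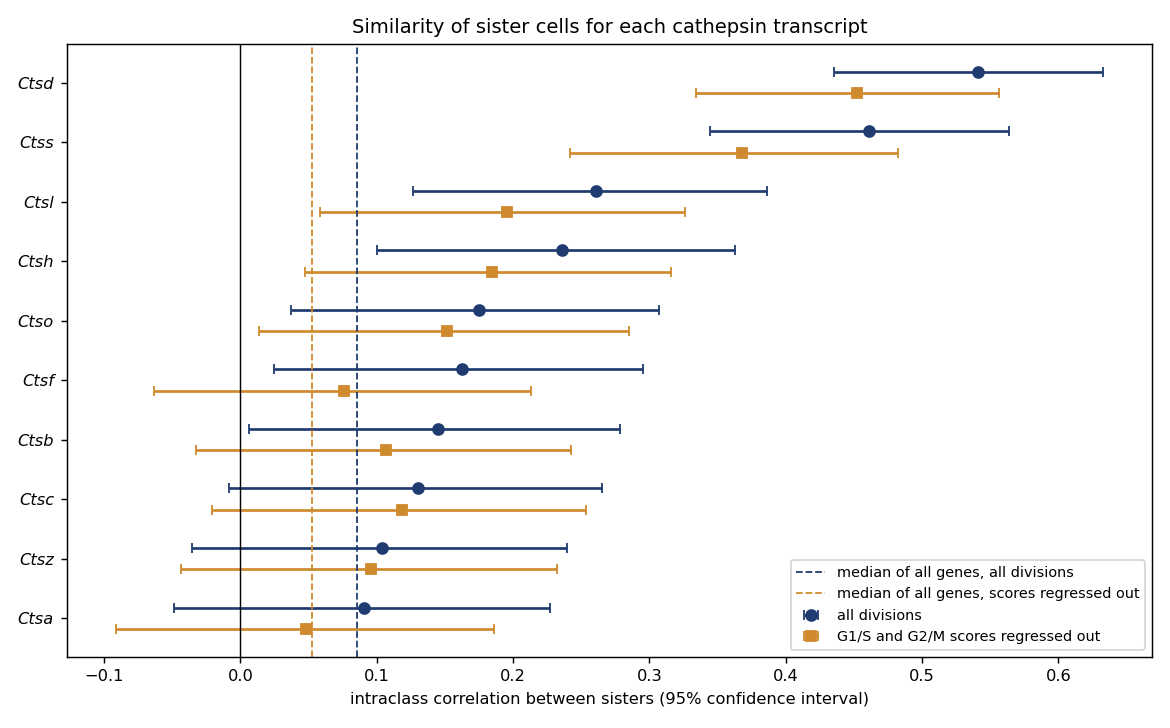
Intraclass correlation between sisters (x axis) with its 95% confidence interval for each cathepsin, from all divisions (blue circles) and with cell cycle scores regressed out (orange squares). The dashed lines are the medians of all genes tested, 0.0858 with all divisions (blue) and 0.0528 with cell cycle scores regressed out (orange), and the intervals of Ctsd, Ctss and Ctsl lie above the line of their own setting in both.

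Sisters were also set side by side for genes that act on or with cathepsins, by the F test that 26.4% of all genes passed. No gene passed the test over experiments (0%), and none could at its smallest possible p. All 3 inhibitors tested passed: Serpina3g, a serpin gene (0.375), Cstb, encoding cystatin B (0.358), and Cst3, encoding the secreted cystatin C (0.261). Of 7 processing enzymes and partners, 5 passed: Lgmn, encoding the asparaginyl endopeptidase that cleaves several cathepsin precursors (0.371), Psap (0.291), Tpp1 (0.237), Neu1, the neuraminidase partner of Ctsa (0.169), and Grn (0.168). Of 9 genes of sorting to lysosomes, M6pr, a mannose 6-phosphate receptor gene (0.382), passed, and Gnptg (0.12), Gnptab (0.0981) and Igf2r (0.0336) did not. Tfec (0.216) was the 1 of 4 lysosomal transcription factor genes to pass, with Mitf at 0.123, Tfeb at 0.0844 and Tfe3 at 0.0788.

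By the same F test, of 7 genes of class II presentation tested, 6 passed: Cd74, the invariant chain gene (0.592), H2-Aa (0.381), Ifi30 (0.304), H2-Ab1 (0.287), H2-Eb1 (0.234) and H2-DMa (0.172). Of 8 HSC markers tested, 7 passed, namely Ly6a (0.59), Procr (0.546), Hlf (0.544), Fgd5 (0.356), Slamf1 (0.343), Kit (0.289) and Mecom (0.247). Of 2 further cathepsins tested, Ctse passed (0.18) and Ctsw did not (0.0394).

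Across cells, cathepsin transcripts were weakly to moderately correlated, after centring on experiment and plate, over all listed cells, which share preparation within a plate. Read depth still differed between cells of 1 plate. Pearson's r of the cathepsins with the log10 of total reads ran from −0.03 for Ctsf to 0.17 for Ctsb. With the number of detected genes it ran from −0.12 for Ctsf to 0.18 for Ctsc. Spearman's r, which uses ranks, ran instead from −0.22 for Ctsd to 0.02 for Ctsc. For Ctsb it was −0.12, against a Pearson's r of 0.17. The highest pairs were Ctsb with Ctsd (Pearson's r = 0.40), Ctsa with Ctsb (0.40) and Ctsb with Ctsl (0.37). Without the 2 low-mitochondrial libraries these were 0.30, 0.34 and 0.32, and Ctsb with Ctsz had 0.23 in place of 0.34. At the other end were Ctsf with Ctsz (−0.00) and Ctsc with Ctsf (−0.02). Set across the sisters of a division, 1 gene in 1 daughter and the other gene in its sister, Ctsl with Ctss had r = 0.28 and Ctsb with Ctsl 0.26, and Ctsa with Ctsb had 0.05.

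The genes most like the mean cathepsin score, among 9548 genes with reads in at least 50% of cells, were Laptm5, encoding a lysosomal membrane protein (r = 0.58), Psap (0.55), Gstm1, encoding a glutathione transferase (0.52), Procr, encoding a surface receptor used to sort HSCs (0.51), and Apoe, the apolipoprotein E gene (0.51). For Ctsb they were Itm2b (0.63), Laptm5 (0.61) and Cd63 (0.57), and for Ctsd Laptm5 (0.57), Itm2b (0.56) and Cd63 (0.52). Ctsa was most like Laptm5 (0.42), Lgals3bp (0.37) and Psap (0.37), and Ctsl was like Laptm5 (0.37) and Gstm1 (0.36). Ctss was most like Lgals1 (0.49), Procr (0.43) and Cd53 (0.42), and Ctsh most like Cd53 (0.37), Hlf (0.33) and Adgrl4 (0.33). Ctsz was most like Mydgf (0.38), Atp6v0c (0.37) and Lman2 (0.36), Ctsc most like Ehbp1l1 (0.36), Mydgf (0.35) and Tram1 (0.34), and Ctso had no gene above Wdfy2 (0.24), Ttc14 (0.23) and Pkd1 (0.22). Without the low-mitochondrial libraries the mean score had 0.55 with Laptm5, Cd53 (0.50) took the place of Apoe, and Ctsb was most like Rnh1 (0.50), ahead of Laptm5 and Itm2b (both 0.46).

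Most cathepsins were lower in cells with a higher G2/M score and higher in cells with a higher HSC marker score. With the G2/M score, r was −0.40 for Ctsd, −0.34 for Ctss, −0.32 for Ctsf, −0.25 for Ctsl and −0.22 for Ctsh, and 0.04 for Ctsz. It was negative in 9 of 9 experiments for Ctsf, Ctsh, Ctsl and Ctss and in 8 for Ctsb and Ctsd. With the HSC marker score, r ran from 0.17 for Ctsf to 0.44 for Ctsb and was positive in 9 of 9 experiments for Ctsb, Ctsd, Ctsf, Ctsh, Ctsl, Ctso and Ctss. With the G1/S score, r was 0.12 for Ctsz and 0.05 for Ctsa, positive in 7 and 5 of 9 experiments, and negative for the other 8 genes, down to −0.29 for Ctss. Without the low-mitochondrial libraries r of Ctsd with the G2/M score was −0.43, and the HSC marker score ran from 0.15 for Ctsz to 0.40 for Ctss. With the macrophage and dendritic marker score, r ran from 0.10 for Ctso to 0.29 for Ctsb, and its part in the other correlations was not tested.

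**Figure D5:**
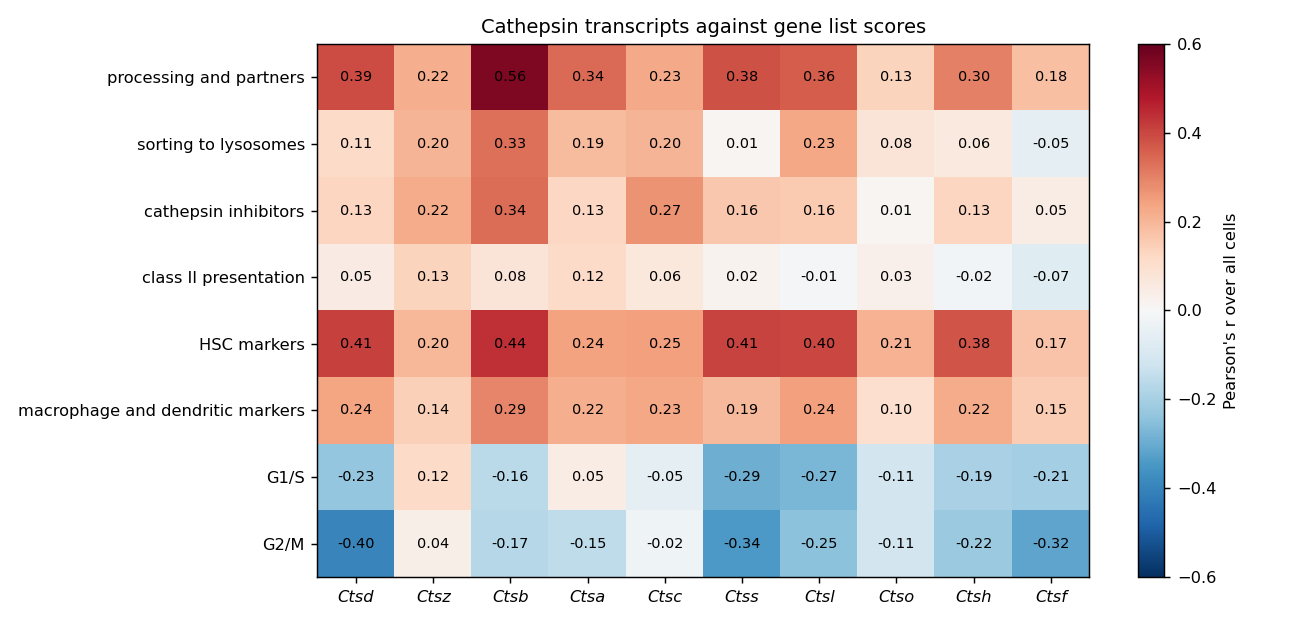
Pearson's r over all listed cells between each cathepsin transcript (columns, in order of level per kilobase) and the mean score of each gene list (rows), all centred on experiment and plate. HSC markers and processing enzymes are positive for all 10 genes, and G2/M is negative for 9 of them, down to −0.40 for Ctsd.

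The promoters of some of these genes share a short sequence. The factors TFEB and TFE3, which drive lysosomal genes, bind elements built on the E-box CACGTG, and their sites are often written with the letters TCACGTGA. The 250 bases before each RefSeq start on GRCm38.p6 were taken. That gave 9 windows for 8 of the 10 genes, with none used for Ctsb and Ctsh. CACGTG, which reads the same on both strands, was in 4 of the 9 windows, those of Ctsa, Ctsd, Ctsf and Ctsl, and in 6.02% of 32851 windows of all genes. TCACGTGA, which contains the E-box and also reads the same on both strands, was in the windows of Ctsa and Ctsd and in 0.785% of all windows. TCACGTG, searched on both strands, was in the same 2 members and in 3.13% of all windows. The stretches around each E-box are shown because they are what these promoters have in common, with the matching letters in capitals. They lie at chr2:164833743-164833772 (plus strand) for Ctsa, chr7:142388048-142388077 and chr7:142387908-142387937 (minus strand) for Ctsd, chr13:64370739-64370768 (minus strand) for Ctsl and chr19:4855074-4855103 (plus strand) for Ctsf.
Ctsa: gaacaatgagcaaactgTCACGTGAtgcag
Ctsd, upstream match: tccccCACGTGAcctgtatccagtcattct
Ctsd, match near the start: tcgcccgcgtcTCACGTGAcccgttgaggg
Ctsl: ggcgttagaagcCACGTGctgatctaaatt
Ctsf: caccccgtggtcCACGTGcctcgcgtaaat

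A match of letters is a description of these windows and not a site shown to be bound. Some RefSeq starts lie inside the gene spans of GENCODE M21. The stretches of Ctsa and Ctsl and the Ctsd match near the start lie within those spans. They are chr2:164832873-164841032 for Ctsa, chr13:64359337-64370890 for Ctsl and chr7:142375911-142388038 for Ctsd. Readouts varied among the 4 genes with the E-box: Ctsd, Ctsl and Ctsf passed between sisters while Ctsa did not, and reads were found in 100% of cells for Ctsa and 46% for Ctsf. Tfeb, Tfe3, Mitf and Tfec transcripts had reads in 81.9%, 89.9%, 74.1% and 98.7% of cells, and the score of these 4 genes had r between 0.04 for Ctso and 0.19 for Ctsb with the cathepsins.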

How the data were processed

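The authors deposited counts, whole numbers of reads for each gene in each cell, not normalized. Per the submitters' processing notes, reads were handled with SAMtools and counted with featureCounts (Subread 1.5.0). For aligner and genome build, the answer is not given in the sources used here. Gene identifiers matched GENCODE M21 (GRCm38) for all 55450 genes. The deposited metadata (unit: other) gave experiment, run, plate and lysosome label, and sisters were joined on movie, experiment, position and colony. A further 171 count columns of no listed sample were not used. CPM is relative to a cell's gene reads. Reads carry no molecular identifiers, so read totals are not molecules.

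Counts summed per experiment and label, and per experiment, were tested with edgeR 4.0.16 in R 4.3.3 (TMM, filterByExpr, quasi-likelihood F test). Alternatives used limma 3.58.1, DESeq2 1.42.0, RLE factors, no filter on low counts, no replicate block, thinning to 75000 reads, each run alone and each experiment left out. The intraclass correlation used genes with reads in at least 20% of cells, or 5% as an alternative, and pseudocounts of 1 or 10 CPM, ranks, other centring, or depth and cell cycle scores regressed out. All tests are two-sided except the F test over divisions. The other steps ran in Python 3.11.15 (scipy 1.17.1, numpy 2.4.6, pandas 2.3.3, matplotlib 3.10.9). The edgeR tests between labels and between runs, and the F test over divisions, were tested on simulated data. The sign-flip test, limma, DESeq2 and the interaction of label and run were not.

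The 10 genes and all gene lists were chosen with earlier results of these data known. From each list used in a comparison, genes past the threshold are named, filled up to 4 by smallest p. Genes of like pattern are the 5 with the highest r with the mean score and 3 for each cathepsin with reads in at least 50% of cells. Some genes that these rules name are not reported here. Leaving out the low-mitochondrial libraries and using principal transcript lengths were chosen after seeing the data.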

Additional observations from a re-analysis of the deposited data

How the results depend on the processing

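Between high and low daughters, 0 genes were called with the experiment as block, without that block and under the other alternatives except DESeq2, which called 5 (Gm13986, Zfp658, Sorbs2, Pip5k1b and Reps2, named after their values were seen). Between runs, DESeq2 called 96 genes, and leaving out 1 experiment gave 0 to 1 gene, with Hist1h4d called without experiment 68. No cathepsin was called in either comparison under any alternative. Between sisters, 3084 genes passed, 1430 with cell cycle scores regressed out, 1884 after thinning and 1201 in run 5 alone, and 3 to 8 cathepsins passed over the alternatives. Signs of differences between high and low daughters, none past the threshold, turned as follows. In run 5 alone, Ctsb had −0.017 and Ctss −0.031, and in run 4 alone Ctsc had −0.016 and Ctsd −0.024. After thinning, Ctsc had −0.037 and Ctsl −0.062, with limma on sister differences Ctsl had −0.049 and Ctss −0.055, and without the low-mitochondrial division Ctsc had −0.0068. With 1 experiment left out, Ctsb ran from −0.013 to 0.078, Ctsc from −0.052 to 0.083, Ctsf from −0.42 to 0.011, Ctsl from −0.044 to 0.048, Ctss from −0.012 to 0.19 and Ctsz from −0.0015 to 0.092. Between run 5 and run 4, Ctso had 0.075 after thinning, and with 1 experiment left out Ctsh ran from −0.23 to 0.29 and Ctsz from −0.18 to 0.00054. The order of levels kept 7 of 10 places with medians over cells, 10 after thinning, 10 without the low-mitochondrial libraries and 5 with principal transcript lengths. The cause of these changes was not tested. Depth limits the share of cells with reads, which was lower after thinning for all 10 genes.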
